A study of Homo sapiens with 9 samples.

Results

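Transcripts of the angiomotin family were followed on 9 Illumina bead arrays of total RNA from HEK293, a line derived from human embryonic kidney. The family has 3 genes, AMOT, AMOTL1 and AMOTL2, and its probes were taken by gene symbol from the table of unprocessed signals. The probe annotation names 1 probe for AMOT and 1 for AMOTL2, 2 of the 47231 probes of the table. It names none for AMOTL1, which was not analysed here. Both named probes passed the detection filter and were among the 22375 probes tested. The arrays fall into 3 groups of 3. HEK293 cells with an Amot shRNA, titled Angiomotin knockout, form the AMOT hairpin group, those with a Yap shRNA, titled Yap knockout, form the YAP hairpin group, and HEK293 cells without a labelled hairpin form the wild type. The design text gives the hairpin groups as KD, and each group holds 3 individual experiments. No group carries a control hairpin, and the labels give neither hairpin sequences, clones nor times. Effects of a hairpin vector therefore cannot be told apart from those of lowering its target.

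Angiomotins are scaffold proteins of cell junctions and the actin cortex. Each binds YAP and TAZ, the coactivators at the end of the Hippo pathway, and can hold them at junctions or in the cytoplasm, while the LATS kinases phosphorylate angiomotins and NEDD4-type ligases ubiquitinate them. AMOT was first studied in endothelial cells as a binding partner of angiostatin and is made in a long and a short form, of which the long form carries the motifs that bind YAP. AMOTL1 is a junction protein of the same build, and AMOTL2 is known both as a binding partner of YAP and as a target gene of YAP with the TEAD factors.

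The arrays had median raw signals of 174.7 to 184.8 in the AMOT hairpin group, 179.6 to 183.6 in the YAP hairpin group and 185.1 to 208.1 in the wild type. Probes with a detection p under 0.05 numbered 20827 to 22187, 20866 to 21709 and 19831 to 20397 in the same order, so each hairpin array had more detected probes than any wild-type array. Of 8 marker genes of HEK293 cells 6 had a tested probe, KRT8, KRT18, VIM, NEFL, NEFM and CDH2, whereas PAX2 and LHX1 had no named probe among those tested. None of 8 endothelial marker genes had one. Among 18 markers of endothelial, blood and fibroblast cells 3 were measured, CD14, COL1A1 and LUM. Their summed normalized level was 260 to 307 in the AMOT hairpin group, 184 to 233 in the YAP hairpin group and 199 to 250 in the wild type, and CD14 differed between AMOT hairpin and wild type by a log2 change of 0.61 (limma adjusted p = 0.0024). LUM also passed, at 0.73 (adjusted p = 0.033), from a wild-type mean under the limit of detection, and neither passed under the YAP hairpin. COL1A1 stood at -0.37 under the AMOT hairpin and -0.25 under the YAP hairpin, neither called. Of the HEK293 markers, KRT8 rose under both hairpins by 0.68 and 1.28, VIM rose by 0.87 under the AMOT hairpin, and NEFM fell by 0.94 under the AMOT hairpin and rose by 0.53 under the YAP hairpin. KRT18, NEFL and CDH2 were called under neither, at -0.01, -0.22 and 0.04 under the AMOT hairpin and -0.15, -0.04 and 0.13 under the YAP hairpin. The part of these shifts in the results was not tested. In bulk RNA of this kind, fewer cells with a transcript and less of it per cell cannot be told apart.

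Because AMOTL2 is known as a YAP-TEAD target, the start regions of the measured genes were searched for the core of the TEAD motif, CATTCC, on both strands (GGAATG on the other). The windows are the 250 bases before each gene start in the RefSeq table for GRCh38.p14. AMOT has 1 start in that table, at chrX:112840832-112841081 on the minus strand, and AMOTL2 has 2, at chr3:134374448-134374697 and chr3:134375418-134375667 on the minus strand. They are shown 5′ to 3′, with the match in capitals.
AMOT: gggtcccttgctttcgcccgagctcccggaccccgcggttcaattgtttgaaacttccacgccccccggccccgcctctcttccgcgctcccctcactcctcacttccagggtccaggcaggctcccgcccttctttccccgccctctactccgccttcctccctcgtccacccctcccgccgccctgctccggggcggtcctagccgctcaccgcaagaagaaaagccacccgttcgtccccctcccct
AMOTL2, inner start: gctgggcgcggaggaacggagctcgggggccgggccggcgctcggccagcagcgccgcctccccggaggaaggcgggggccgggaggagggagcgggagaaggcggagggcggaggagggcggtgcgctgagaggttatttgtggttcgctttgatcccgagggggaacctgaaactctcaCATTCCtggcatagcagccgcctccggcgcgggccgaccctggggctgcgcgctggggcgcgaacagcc
AMOTL2, outer start: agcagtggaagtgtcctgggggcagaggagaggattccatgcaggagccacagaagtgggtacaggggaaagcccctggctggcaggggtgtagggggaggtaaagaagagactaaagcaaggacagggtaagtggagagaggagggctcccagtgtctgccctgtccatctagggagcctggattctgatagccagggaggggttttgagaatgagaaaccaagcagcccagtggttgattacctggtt
The inner start of AMOTL2 held 1 match, beginning 69 bases before the start, and the other windows held none. The same letters stood in 4175 of 35116 windows of this length (11.9%). A match of 6 letters is a description of the sequence and not a bound site.

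AMOT, at X:112774877 to 112840831 (GRCh38.p14), fell in both hairpin groups, far more under its own hairpin than under the YAP hairpin. Its product is the founding member of the family. Its raw signals were 1051, 1020 and 1360 on the AMOT hairpin arrays, 12506, 14439 and 13186 on the YAP hairpin arrays, and 19878, 26347 and 19406 on the wild-type arrays. The 3 groups did not overlap, and every array detected the probe, at least 4.06 above the limit of detection on the log2 scale. The highest signals of the arrays lay between 67975 and 72391, so the AMOT signals were not at the top of the scale.

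**Figure D1:**
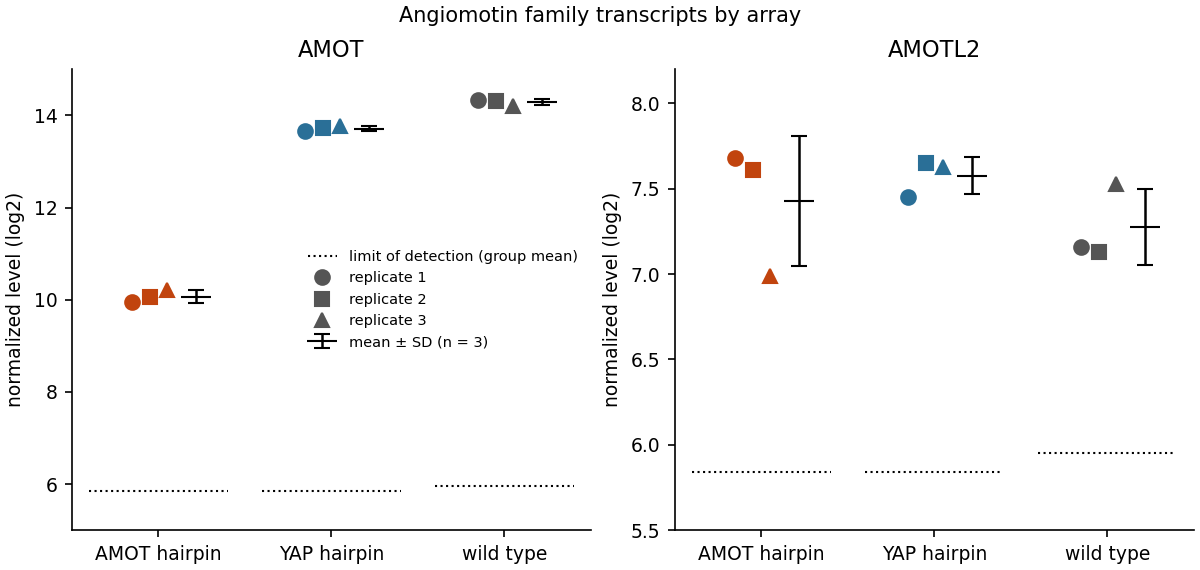
Normalized log2 levels of AMOT (left) and AMOTL2 (right) on each array, by group, with the mean and SD of 3 arrays and the limit of detection as a dotted line; the vertical axes differ. AMOT separates the 3 groups without overlap, and AMOTL2 lies between 6.99 and 7.68 with the groups overlapping.

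After background correction and normalization AMOT averaged 10.06 ± 0.13 in the AMOT hairpin group, 13.71 ± 0.05 in the YAP hairpin group and 14.29 ± 0.07 in the wild type (log2 level, SD, n = 3 each). Under the AMOT hairpin 5.36% of the wild-type level was left (95% interval 4.59 to 6.25%; log2 change -4.22, SE 0.10, limma adjusted p = 3.8e-08). By array this was 4.92, 5.29 and 5.92% of the wild-type mean. Among all 22375 tested probes AMOT had the third strongest fall in this comparison.

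In the YAP hairpin group AMOT stood at 67.2% of the wild-type level (95% interval 57.6 to 78.5%; log2 change -0.57, SE 0.10, limma adjusted p = 0.0017). The arrays held 64.8, 67.6 and 69.4% of the wild-type mean, against 103.1, 102.1 and 94.95% on the wild-type arrays themselves. The fall passed the test under each of 18 alternatives, with log2 changes from -0.61 to -0.52. It was larger than most changes of the comparison but not among the largest, at rank 5086 of 22375 by size. Of all tested probes 77.3% moved by less, and 37.3% were called in either direction. Between the hairpin groups AMOT was 12.6-fold lower under the AMOT hairpin than under the YAP hairpin (95% interval 10.8 to 14.6; limma adjusted p = 1.0e-07).

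Which of the AMOT transcripts the probe reads was not settled here, so the long and the short form are not told apart. The within-group SD of AMOT was 0.09 on the log2 scale, against a median of 0.17 over the tested probes, and 12.3% of the probes had a smaller one. The comparisons with the wild type share the same 3 wild-type arrays.

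AMOTL2, at 3:134355345 to 134375417, was a dim probe that passed the test in no comparison. Its raw signals were 339.4, 309.7 and 269.2 on the AMOT hairpin arrays, 315.8, 354.7 and 333.8 on the YAP hairpin arrays, and 260.1, 319.4 and 319.5 on the wild-type arrays. Array 3 of the AMOT hairpin was the lowest of all after normalization and array 1 of the same group the highest, so the groups overlapped. The background inferred from the detection p-values was 145.8 to 174.4 on these arrays, which left 102 to 200.2 units of signal for AMOTL2. All 9 arrays detected it, with the largest detection p at 0.0039.

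Its normalized log2 levels were 7.68, 7.61 and 6.99 in the AMOT hairpin group, 7.45, 7.65 and 7.63 in the YAP hairpin group and 7.16, 7.13 and 7.53 in the wild type. Under the AMOT hairpin the log2 change was 0.15 (SE 0.19, 95% interval -0.27 to 0.58, limma adjusted p = 0.57), an interval from 0.831-fold to 1.49-fold of the wild type. Under the YAP hairpin it was 0.30 (95% interval -0.12 to 0.72, limma adjusted p = 0.24), from 0.922-fold to 1.65-fold. Both estimates lie above 0, and neither shows that AMOTL2 stayed the same. Between the hairpin groups the difference was -0.15 (95% interval -0.57 to 0.27, limma adjusted p = 0.66), and without array 3 of the AMOT hairpin it was 0.07.

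Single arrays moved the AMOTL2 value. Without AMOT hairpin array 3 its change under the AMOT hairpin was 0.37 (limma adjusted p = 0.08); without AMOT hairpin array 1, AMOT hairpin array 2, wild-type array 1 or wild-type array 2 it was 0.03, 0.06, 0.10 and 0.08, and without wild-type array 3 it was 0.28. Under median scaling of the arrays the change under the YAP hairpin was 0.50 and passed (limma adjusted p = 0.049), and without background correction, or on the authors' own normalized values, it was 0.16. The within-group SD of AMOTL2 was 0.26, against a median of 0.21 for probes of like brightness. Of the 2 measured members, then, AMOT was called under both hairpins and AMOTL2 under neither. Of all tested probes 35.1% were called under the AMOT hairpin and 37.3% under the YAP hairpin. Because AMOT is the target of the AMOT hairpin, its call there is a check of the hairpin and is not weighed against that share.

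**Figure D2:**
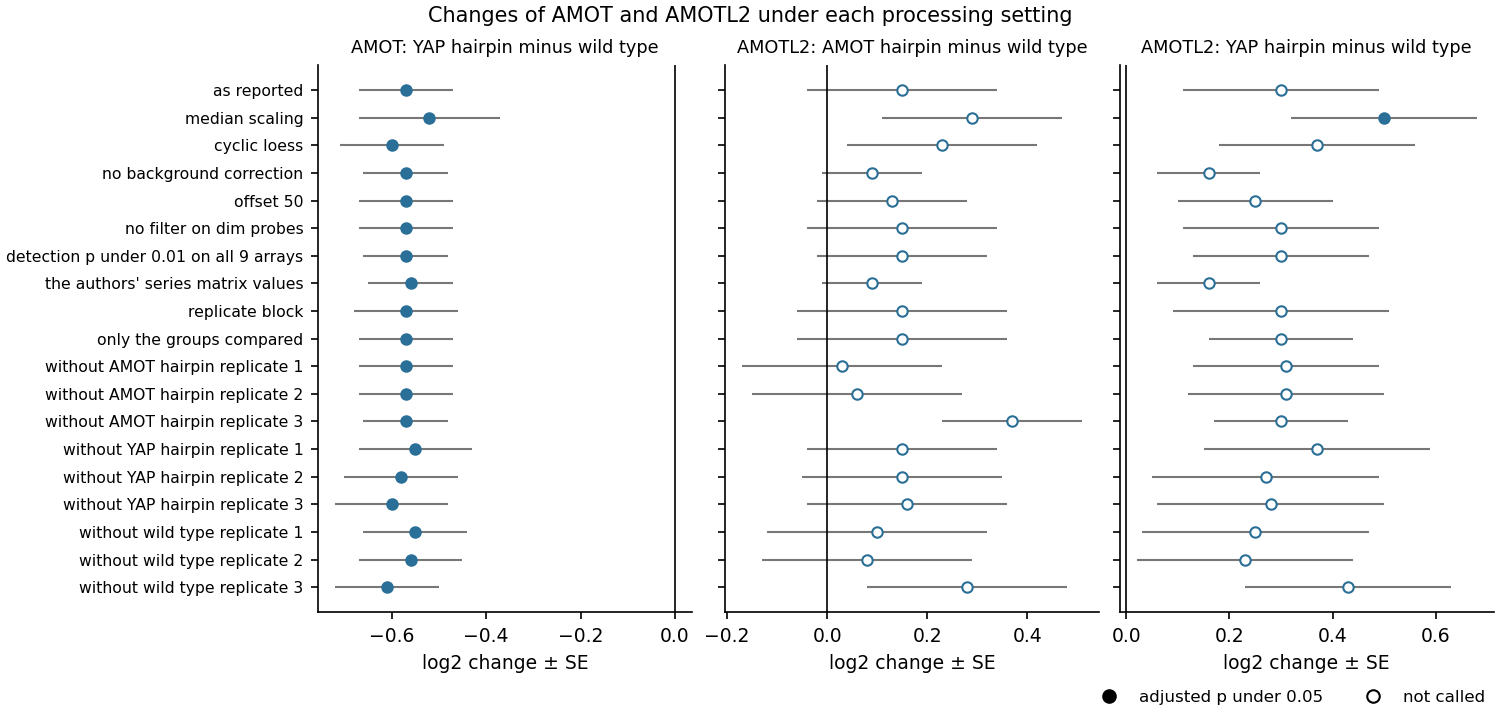
Log2 change ± SE (horizontal axis) of AMOT under the YAP hairpin and of AMOTL2 under each hairpin, as reported and under each processing alternative or left-out array (rows). AMOT stays filled, past the threshold, from -0.61 to -0.52, whereas AMOTL2 passes in 1 row only, at 0.50.

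Next the genes nearest to each member's pattern were sought, by Pearson correlation of log2 levels over the 9 arrays among 12661 named probes whose levels spanned at least 0.5. The arrays fall into 3 groups, so a correlation here can reflect the group means alone and is given as a description. AMOT varied mostly by its fall under the AMOT hairpin, so genes picked by closeness to AMOT differ in that group by the choice itself. The p-values given below for the picked genes belong to that description and are not a separate test. Nearest to AMOT were CYB5A, the electron carrier cytochrome b5 (r = 0.997), CCND1, the G1 cyclin D1 (0.996), the RNA demethylase ALKBH5 (0.995), the mitochondrial GTPase MTG1 (0.995) and AATF, a nucleolar factor of ribosome production (0.993). In all 335 named probes reached 0.9 with AMOT and 358 reached -0.9.

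CYB5A averaged 10.13 in the AMOT hairpin group, 11.34 in the YAP hairpin group and 11.51 in the wild type (log2 level). It fell by 1.38 under the AMOT hairpin (limma adjusted p = 7.8e-06). Its change of -0.17 under the YAP hairpin did not pass (adjusted p = 0.16), and its other probe stood at -1.38 and -0.37 and was called in both. MTG1 fell by 1.84 under the AMOT hairpin (limma adjusted p = 2.8e-06) and fell by 0.39 under the YAP hairpin (adjusted p = 0.011), a call lost under median scaling. ALKBH5 and AATF fell by 0.61 and 0.67 under the AMOT hairpin, and CCND1 fell by 2.13. Under the YAP hairpin these 3 were at -0.10, -0.05 and -0.31 and did not pass.

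Most opposite to AMOT were the long non-coding RNA LINC01139 (r = -0.998), the calcium release channel ITPR3 (-0.997) and CSTF3, a subunit of the complex that cleaves pre-mRNA at its end (-0.994). LINC01139 was detected on no YAP hairpin and no wild-type array. It was at least 3.02-fold higher under the AMOT hairpin than in the wild type and at least 3.24-fold higher than under the YAP hairpin. ITPR3 and CSTF3 rose by 1.09 and 0.98 under the AMOT hairpin, and 3 other probes of CSTF3 stood at 0.99, 0.46 and 0.96.

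AMOTL2 had looser company. KCTD1, a transcriptional corepressor (r = 0.924), the antisense transcript SLC26A4-AS1 (0.904), the complement protease C1S (0.893), CFLAR, an inhibitor of death receptor signalling (0.882), and the semaphorin receptor PLXND1 (0.855) came nearest, and COQ4 (-0.896), SLC25A3 (-0.893) and SYF2 (-0.888) were most opposite. Of these 8 genes only CFLAR passed a test by the probe that came near, with 0.50 under the YAP hairpin (limma adjusted p = 0.024), and it no longer passed with a replicate block or without YAP hairpin array 1 or 3 or wild-type array 1 or 2. Other probes disagreed: that of KCTD1 had r = 0.32 with AMOTL2, those of SLC25A3 had 0.519 and 0.189, and those of SYF2 had 0.367 and 0.20. Some of these were called under the YAP hairpin, that of KCTD1 at 1.10 (limma adjusted p = 6.3e-04), one of SLC25A3 at 0.52 and both of SYF2 at 0.55 and 0.38. One probe each of SLC25A3 and SYF2 was called under the AMOT hairpin, both at 0.46. Some of the 8 probes that came near or opposite also lay close to the limit of detection. C1S was detected on no wild-type array, KCTD1 on 1 wild-type array and COQ4 on 1 AMOT hairpin array. Just 2 named probes reached 0.9 with AMOTL2 and none -0.9, and AMOT and AMOTL2 had r = -0.10 with each other.

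**Figure D3:**
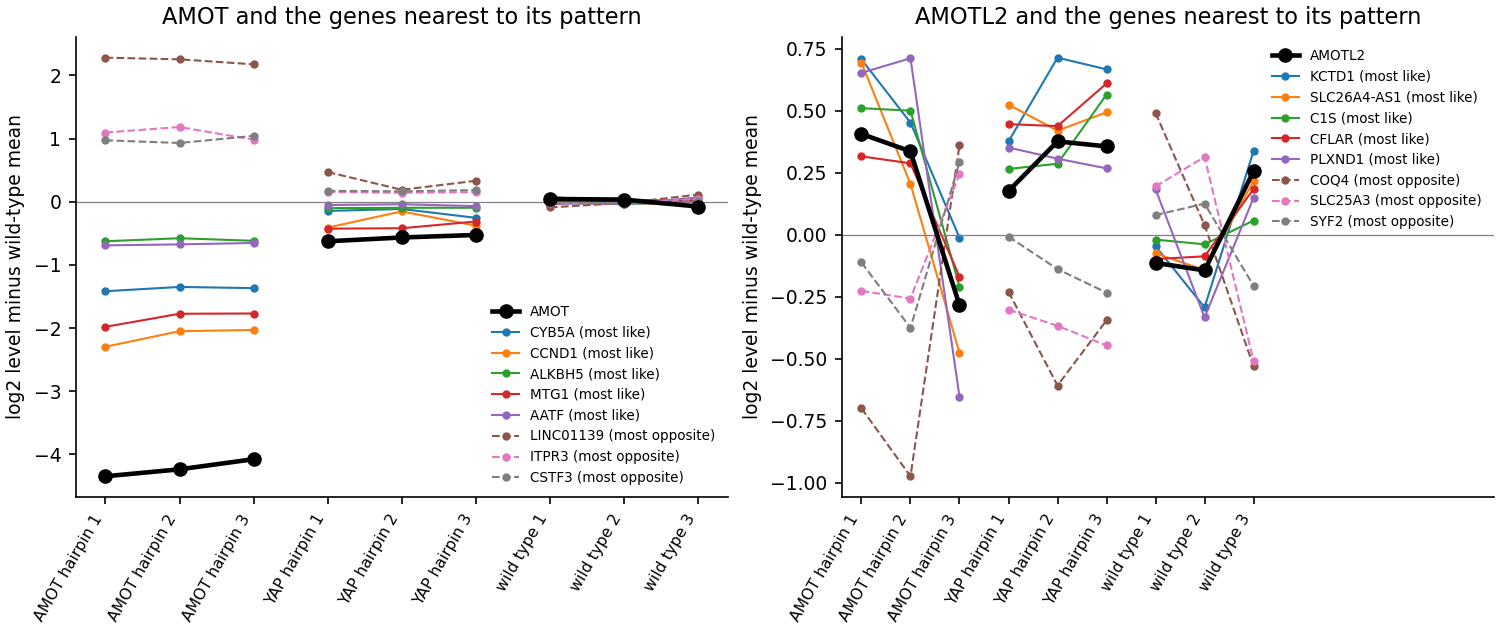
Log2 level minus the wild-type mean on each array for AMOT (left) and AMOTL2 (right), with the 5 genes most like each (solid) and the 3 most opposite (dashed); lines join arrays of a group only and carry no order. The genes near AMOT part the AMOT hairpin arrays from the other 6, while 4 of the 5 genes nearest AMOTL2, all but KCTD1, are like it lowest on AMOT hairpin array 3.

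The proteins that angiomotins bind or are regulated by were described from a list of 50 genes, of which 39 had a tested probe, 1 probe being taken for each gene. WWTR1, which encodes TAZ, the 3 MAGI genes and both tankyrase genes were among the 11 without one. Under the AMOT hairpin 3 rose, 5 fell and 31 were not called, 20.5% called against 35.1% of all probes (17.6% higher, 17.5% lower). Under the YAP hairpin 8 rose, 6 fell and 25 were not called, 35.9% against 37.3% (18.5% higher, 18.7% lower). YAP1, the target of that hairpin, is among the 6 that fell, and among those counted as higher in the next comparison. Between the hairpin groups 3 were higher and 8 lower under the AMOT hairpin, 28.2% against 17.4% of all probes (8.61% higher, 8.84% lower). That count was 7 in all without AMOT hairpin array 1 or 3 and 5 without YAP hairpin array 1 or 2. Median log2 changes of the list were -0.05, -0.01 and -0.13, beside -0.02, -0.01 and 0.00 over all tested probes. These counts depend on the probe taken. Among genes not called under the AMOT hairpin, another probe was called for CDC42 (-1.29), RAC1 (-0.65), ARHGAP17 (-0.39) and USP9X (-0.42). The reverse held for LIN7C, MOB1A and NEDD4, which were called by the probe taken and not by the other. Other probes of some uncalled genes were also called under the YAP hairpin.

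Of 11 measured polarity and junction scaffolds, which anchor angiomotins at the apical junction, 1 rose and 1 fell under the AMOT hairpin, 18.2% called against 35.1% of all probes. PARD3, a polarity protein, was undetected in the wild type and at least 1.21-fold and 1.15-fold higher under the AMOT and YAP hairpins. It passed the detection filter through the hairpin arrays alone, and it is counted among the genes that rose under each hairpin. LIN7C, a PDZ adaptor, fell by 0.62 and 0.66 on the log2 scale, but its other probe stood at -0.27 and -0.21 and was not called, and the YAP hairpin call was lost under median scaling. Under the YAP hairpin 3 of the 11 rose and 1 fell, 36.4% called against 37.3% of all probes. PARD6A, a partner of PARD3, rose there by 1.01 (limma adjusted p = 1.1e-04) and cingulin, CGN, by 0.64. Under the AMOT hairpin both stayed uncalled, at -0.03 and -0.21, and the difference between the hairpins was called for each, at -1.04 and -0.85. The other probe of PARD6A stood at 0.50 under the AMOT hairpin and 0.96 under the YAP hairpin, the second called, and its difference of -0.46 between the hairpins was not called (adjusted p = 0.19). Between the hairpins 1 scaffold was higher and 3 lower under the AMOT hairpin, 36.4% called against 17.4% of all probes. LIN7B and TJP1 differed between the hairpins by -0.74 and 0.43, calls lost under 9 and 8 of 18 alternatives. The other probe of TJP1 differed by 0.38 and was also called (limma adjusted p = 0.017). Under the YAP hairpin that probe was called at -0.40, whereas the brighter one, at -0.31, was not.

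The Hippo group held 17 measured genes, of which none rose and 4 fell under the AMOT hairpin, 23.5% called against 35.1% of all probes. The LATS cofactors MOB1A and MOB1B fell by 0.80 and 0.66, TEAD2 by 0.58, and LATS1, whose AMOT hairpin mean lay under the limit of detection, by a fitted 0.70. MOB1B lost its call under median scaling and without AMOT hairpin array 1 or wild-type array 2, and LATS1 without AMOT hairpin array 1 or 2 or wild-type array 3. YAP1, the target of the other hairpin, stood at 10.58 under the AMOT hairpin, 8.84 under the YAP hairpin and 10.66 in the wild type. It fell by 1.82 in the YAP hairpin group (limma adjusted p = 3.2e-06). Under the AMOT hairpin its log2 change was -0.08 (95% interval -0.31 to 0.15, limma adjusted p = 0.57). Of the same 17 genes 4 rose and 3 fell under the YAP hairpin, 41.2% called against 37.3%. YAP1, lowered by its own hairpin, is among the 3 that fell, so that share is not free of the design. MOB1A fell by 0.80 there too, while its other probe stood at -0.40 (adjusted p = 0.10) under the AMOT hairpin and -0.58 under the YAP hairpin. TEAD3 rose by 1.02 and VGLL4, a cofactor that competes with YAP for TEADs, by 1.08. LATS1, whose YAP hairpin mean also lay under the limit of detection, had a fitted change of -0.61. That call was lost with no filter on dim probes and without YAP hairpin array 1 or wild-type array 1 or 3. Upstream, the scaffold WWC1, also called KIBRA, and the kinase STK3 rose by 0.41 and 0.51 under the YAP hairpin.

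Ligases of the NEDD4 type ubiquitinate angiomotins. NEDD4L rose by 1.00 under the AMOT hairpin (limma adjusted p = 0.0028) and by 1.51 under the YAP hairpin (adjusted p = 2.4e-04), and the difference between them, -0.52, was not called (adjusted p = 0.089). NEDD4 rose by 0.72 under the AMOT hairpin and stood at -0.21 under the YAP hairpin, and its other probe stood at -0.09 and -0.45, so the probes disagree. That rise also lost its call when only the groups compared were fitted, and without AMOT hairpin array 2 or 3 or wild-type array 1. These ligases were listed in a wider group for ubiquitin and ADP-ribose turnover, which also holds HUWE1, USP9X and RNF146. Of the 8 measured genes of that wider group 2 rose under the AMOT hairpin, 25.0% against 35.1% of all probes. Under the YAP hairpin 1 rose and 2 fell, 37.5% against 37.3%. Between the hairpins 1 was higher and 1 lower under the AMOT hairpin, 25.0% against 17.4%. WWP2 fell by 0.53 and ITCH fell by 0.30 under the YAP hairpin, the ITCH call being lost under 8 of 18 alternatives, among them each left-out YAP hairpin array and wild-type array 2 or 3. The WWP2 call was lost under median scaling. WWP1, a ligase of the same type, differed between the hairpins by -0.53 (limma adjusted p = 0.023), a call lost without AMOT hairpin array 3 or YAP hairpin array 1 or 2.

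**Figure D4:**
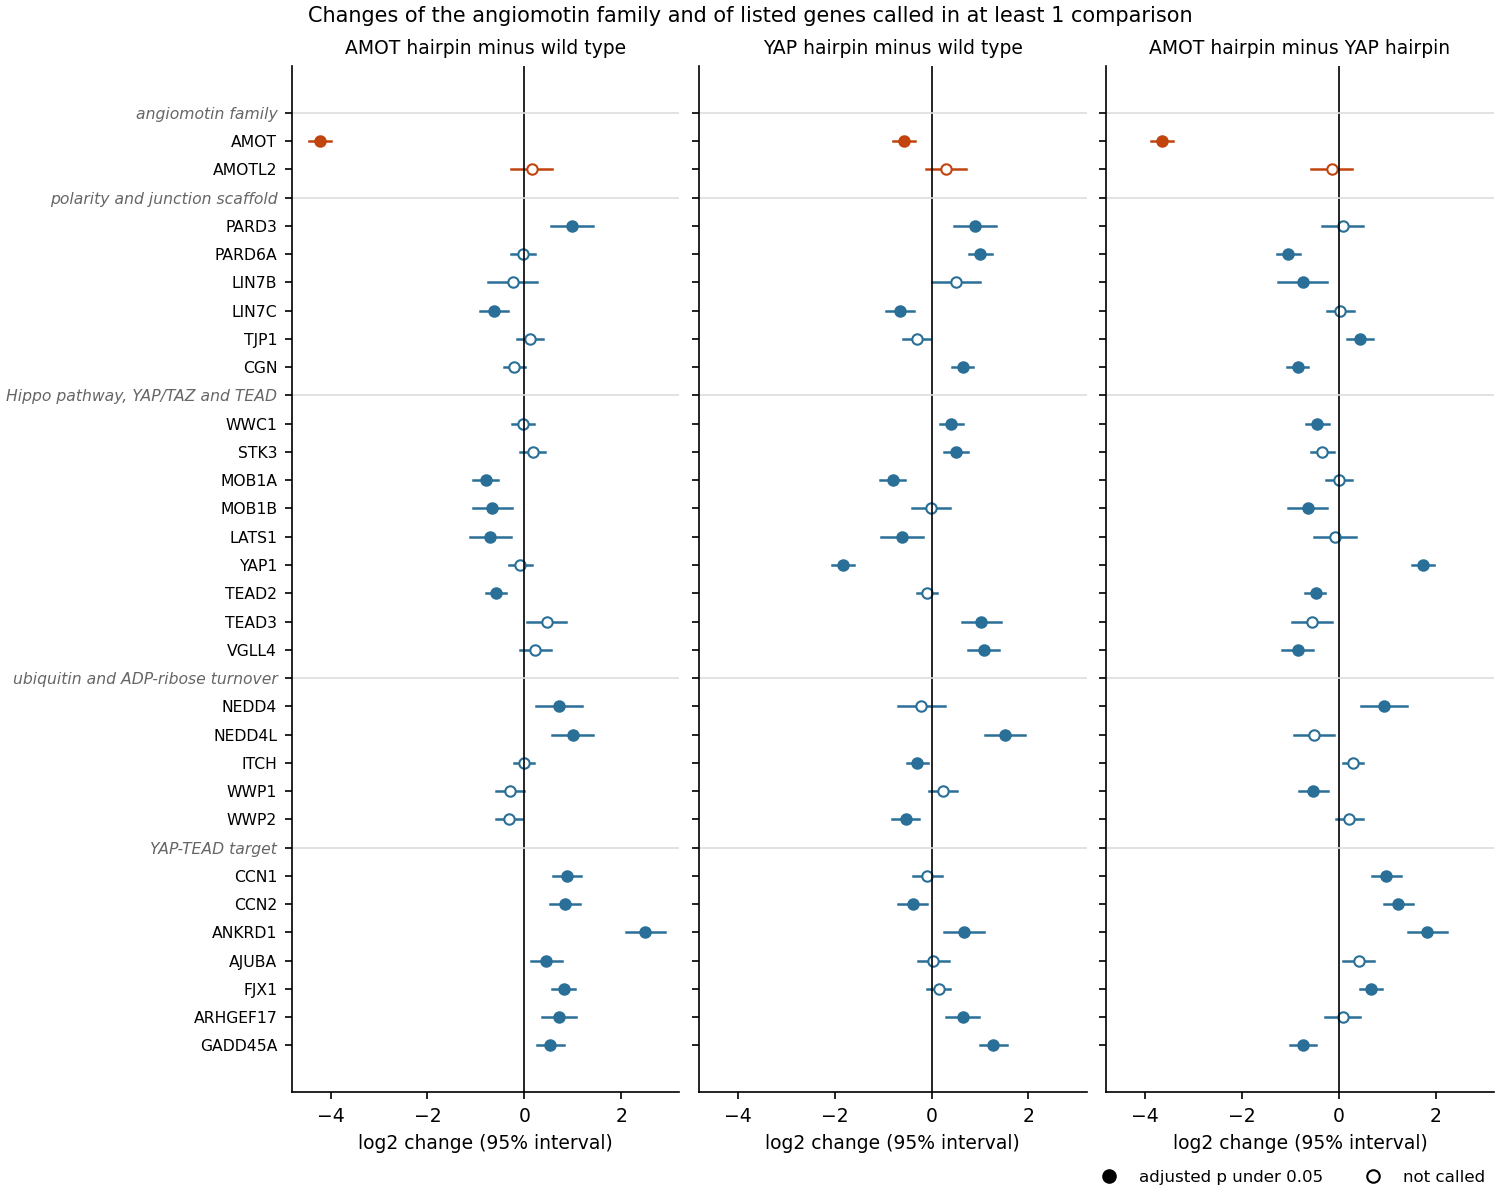
Log2 change with its 95% interval (horizontal axis) in the 3 comparisons for AMOT and AMOTL2 (red) and for listed genes called in at least 1 of them (blue), by role; filled points passed the adjusted p threshold. AMOT at -4.22 lies outside the range of the listed genes in the first panel, and the AMOTL2 intervals cross 0 in all 3; for probes undetected in a group the fitted value is plotted.

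Since AMOTL2 belongs to the YAP-TEAD targets, 21 other such genes were set beside it, 13 of them measured and PTPN14 and LATS2 shared with the partner list. Under the AMOT hairpin 7 rose and none fell, 53.8% called against 35.1% of all probes, with a median log2 change of 0.45. AMOTL2 at 0.15 was not among those called. The secreted matricellular proteins CCN1 and CCN2 rose by 0.89 and 0.84, the kinase FJX1 by 0.81, the LIM protein AJUBA by 0.45 and the stress gene GADD45A by 0.54, and ARHGEF17, undetected in the wild type, was at least 1.13-fold higher. ARHGEF17 passed the detection filter through the hairpin arrays alone, and it is counted among the targets that rose under each hairpin. The other probe of CCN2 stood at 0.44 and was not called (adjusted p = 0.074). ANKRD1 had a fitted rise of 2.50 from a wild-type mean under the limit of detection. AJUBA lost its call with a replicate block (0.45, its adjusted p just over the threshold), with no filter on dim probes (adjusted p = 0.066) and without AMOT hairpin array 2 or 3 or wild-type array 1 or 3.

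Under the YAP hairpin 3 of the 13 targets rose and 1 fell, 30.8% against 37.3% of all probes, with a median of 0.04, and AMOTL2 stood at 0.30. The fall of CCN2, by 0.39, lost its call under 12 of 18 alternatives, the left-out YAP hairpin arrays 1, 2 and 3, AMOT hairpin array 2 and wild-type arrays 2 and 3 among them. GADD45A rose by 1.27, and ARHGEF17 was at least 1.08-fold higher. ANKRD1 had a fitted rise of 0.67, a call lost without YAP hairpin array 2, and without that array 2 targets were called. Between the hairpins 4 of the 13 were higher and 1 lower under the AMOT hairpin, 38.5% called against 17.4% of all probes (8.61% higher, 8.84% lower). CCN1, CCN2, ANKRD1 and FJX1 were higher, by 0.98, 1.23, 1.83 and 0.66, and GADD45A lower, by a log2 difference of -0.73. The other probe of CCN2 differed by 0.52 and was not called (adjusted p = 0.064). For AMOTL2 that difference was -0.15, as given above.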

How the data were processed

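Total RNA was measured on 9 bead arrays, 3 per group. The authors deposited a table of bead-summarised intensity values on a linear scale, not normalized between arrays, with a detection p-value beside each, per the file headers. They also deposited a series matrix of 20062 probes with normalized intensity values. Its method and filter, and the slides of the arrays, are not given in the sources used. Groups came from the sample titles. Gene symbols came from an annotation of the matrix probes, 15467 with 1 symbol and 4 with several, of which 15458 matched the GRCh38.p14 gene table.

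The deposited signals were normalized with limma 3.58.1 under R 4.3.3 (neqc: normal-exponential background inferred from the detection p-values, offset 16, quantile normalization, log2). Probes with detection p under 0.05 on at least 3 arrays were fitted in 1 model with a mean for each group (6 residual and 3.53 prior degrees of freedom), and limma's moderated 2-sided test was adjusted by Benjamini-Hochberg over 22375 probes within each comparison, with a threshold of 0.05. A fold is relative to all measured transcripts, the offset draws dim probes towards 0, and precision is limited by the number of arrays. If no array of a group detected a probe, its fold is a lower bound, taken against the higher of the array's limit of detection and the probe's own value. The fit was tested on simulated data. Genes could be named by fixed rules: the members, listed genes called in any comparison, and for each member the 5 most correlated and 3 most opposite genes. A gene was represented by its brightest tested probe, the most correlated genes by the probe found. The members and lists were chosen with earlier results of these data known. Same-numbered arrays of different groups did not deviate together (correlations from -0.13 to 0.10), so replicate numbers were not used as pairs. Results for some listed partner genes are not reported here.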

Additional observations from a re-analysis of the deposited data

How the results depend on the processing

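AMOT kept its direction and its call in all 3 comparisons under 18 alternatives, and across the left-out arrays its log2 changes ran from -4.31 to -4.16 (AMOT hairpin minus wild type), -0.61 to -0.55 (YAP hairpin minus wild type) and -3.73 to -3.59 (AMOT hairpin minus YAP hairpin). For AMOTL2 these ranges were 0.03 to 0.37, 0.23 to 0.43 and -0.28 to 0.07, and its one call was 0.50 under the YAP hairpin with median scaling. That scaling also changed the split of all calls under the YAP hairpin to 4621 higher and 2330 lower, against 4147 and 4191 as reported, and between the hairpins to 1013 and 1835, against 1926 and 1978. With detection p under 0.01 on all 9 arrays, 2 YAP-TEAD targets were called under the YAP hairpin in place of 4. Across left-out arrays, probes called ran from 6227 to 7569, against 7846, for the AMOT hairpin, 6628 to 8227, against 8338, for the YAP hairpin and 2469 to 4052, against 3904, between them, each from a new fit with its own filter. Partner genes called ran from 6 to 10, 12 to 15 and 5 to 11, and targets from 6 to 7, 2 to 5 and 5 to 6. With a replicate block AMOTL2 stood at 0.15 and 0.30 and AMOT at -0.57 under the YAP hairpin; 7233, 7837 and 3304 probes were called, and arrays correlated best with their own number in 6 of 18 cases. Of 68 calls of other named genes, 49 held under every alternative run and none turned its direction. The causes were not tested. AMOTL1 gave no value, and averaging probes was not run because each member has 1. The low signal of AMOTL2 over background limits what these arrays show of it.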

Other observations

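The neighbours of both members were also examined, within 5 Mb on either side, a choice made after the values of the members were seen. Over all tested probes 17.6% were higher and 17.5% lower under the AMOT hairpin, and 18.5% and 18.7% under the YAP hairpin. Near AMOT, 15 other genes were measured, 3 higher and 5 lower under the AMOT hairpin with a median log2 change of -0.20, and 5 higher and 4 lower under the YAP hairpin with a median of 0.13. ALG13, the nearest of them at 1.01 Mb, stood at -0.42 and -0.77, past the threshold in both. Near AMOTL2, 42 genes were measured, 9 higher and 5 lower under the AMOT hairpin (median 0.11) and 9 higher and 9 lower under the YAP hairpin (median -0.05). The nearest measured genes, ANAPC13, RYK and CEP63, at 0.10, 0.10 and 0.11 Mb, stood at 0.21, 0.28 and 0.19 under the AMOT hairpin, none called. Under the YAP hairpin they stood at -0.19, 0.42 and -0.12, and RYK was called (limma adjusted p = 0.009). Next in distance, SLCO2A1, a prostaglandin transporter at 0.33 Mb, rose by 1.56 under the AMOT hairpin and stood at 0.17 under the YAP hairpin (limma adjusted p = 0.45). RAB6B, a vesicle GTPase at 0.46 Mb, rose by 1.58 and 1.68 under the AMOT and YAP hairpins.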
